A study of Mus musculus with 16 samples.

Results

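Checkpoint receptors are surface proteins that restrain T cells once antigen has been recognised. The classical members are PD-1 (Pdcd1), LAG-3 (Lag3), TIM-3 (Havcr2), CTLA-4 (Ctla4), 2B4 (Cd244a), CD160 (Cd160) and BTLA (Btla). Their 7 genes were followed here across 4 sorted subsets of CD8 T cells, the cytotoxic lymphocytes, out of 22180 genes measured. Each gene had 1 probe set annotated with its symbol alone, so no choice between probe sets was needed, and no filter on low values was applied. The cells came from spleens of female C57BL/6 mice that had carried transplanted leukemia cells for 6 weeks. The leukemia arose in Eµ-TCL1 mice, in which an immunoglobulin enhancer drives the TCL1 oncogene in B cells and a disease like chronic lymphocytic leukemia (CLL) develops. The age of the mice is not stated in the sources used here. All 4 subsets were sorted as Lin- TCRb+ CD8+ cells from leukemic spleens, so none comes from a leukemia-free mouse. PD-1hi effectors were CD127low CD44int-hi with high surface PD-1, and PD-1int effectors had the same CD127 and CD44 gate with intermediate PD-1. Memory cells were CD127hi CD44hi and naive cells CD127hi CD44low. Each subset was hybridised to 4 arrays. The titles number the arrays AT1 to AT4 in each of the 4 subsets. The labels do not say whether each is a separate mouse or whether a number marks the same mouse across subsets. The arrays were treated as unpaired, and the p-values therefore cover the spread among these arrays, which may be technical.

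PD-1, LAG-3, TIM-3, CTLA-4 and BTLA carry signals through short cytoplasmic tails, and several of them recruit tyrosine phosphatases that oppose T-cell receptor signalling. 2B4 belongs to the SLAM family and uses SAP-type adaptors, and CD160 binds HVEM, a ligand it shares with BTLA. In RefSeq (GRCm38.p6) Pdcd1 spans chr1:94038305-94052553, Ctla4 chr1:60909025-60915832 and Cd244a chr1:171558718-171585316. Cd160 spans chr3:96798763-96829351, Lag3 chr6:124904359-124912434, Havcr2 chr11:46454931-46481255 and Btla chr16:45223705-45252895. High and lasting expression of several such receptors at once is a known feature of T cells that are stimulated for long, in chronic infection and in tumors.

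The regions just before the start of the genes are shown for 3 receptors whose transcripts were high in both effector subsets, as the sequence nearest to the start of genes with this shared pattern. RefSeq (GRCm38.p6) gave a start region for 6 of the 7 genes, all but Lag3. The 250 bases before the start of Pdcd1 are at chr1:94052554-94052803 on the minus strand, those of Havcr2 at chr11:46454681-46454930 on the plus strand and those of Ctla4 at chr1:60908775-60909024 on the plus strand. Each is written 5′ to 3′ along its gene, and capitals mark matches on either strand to GGAAA (NFAT core), TGANTCA (AP-1), AGGTGT (T-box half-site), TGTGGT (RUNX) or AAAGGTCA (NR4A). The T-box and RUNX letters can overlap, but no matches did in these windows.
Pdcd1: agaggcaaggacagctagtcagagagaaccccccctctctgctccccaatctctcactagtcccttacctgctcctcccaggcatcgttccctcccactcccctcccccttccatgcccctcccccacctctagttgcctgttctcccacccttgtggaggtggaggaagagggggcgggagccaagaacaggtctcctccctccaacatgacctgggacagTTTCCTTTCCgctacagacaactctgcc
Havcr2: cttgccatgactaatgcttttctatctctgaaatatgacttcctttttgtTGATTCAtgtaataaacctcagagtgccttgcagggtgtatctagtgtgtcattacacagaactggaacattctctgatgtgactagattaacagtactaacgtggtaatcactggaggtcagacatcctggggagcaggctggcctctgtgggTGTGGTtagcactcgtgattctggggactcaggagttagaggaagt
Ctla4: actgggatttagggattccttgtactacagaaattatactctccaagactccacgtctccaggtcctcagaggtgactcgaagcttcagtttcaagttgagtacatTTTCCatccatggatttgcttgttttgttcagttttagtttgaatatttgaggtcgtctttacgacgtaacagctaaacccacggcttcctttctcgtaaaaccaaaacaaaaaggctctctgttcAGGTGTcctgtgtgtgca
Pdcd1 held 2 NFAT cores, the nearer one starting 23 bases before the gene. Havcr2 held an AP-1 match 200 bases and a RUNX match 46 bases before its start. Ctla4 held an NFAT core at 144 bases and a T-box half-site at 18 bases. Over all 32851 start regions of this length in the table, 55.6% held the NFAT core, 6.75% AP-1, 11.8% the T-box half-site, 14% RUNX and 1.34% NR4A. No motif was found in all 3 windows, and a match describes letters only. Of the start regions not printed, that of Cd244a held 1 NFAT core and 1 AP-1 match, that of Btla 1 RUNX match, and both regions listed for Cd160 held 1 RUNX match each, the inner one with 1 NFAT core besides.

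Values below are log2 expression per probe set as the authors deposited them. A gene is said to rise or fall where the Benjamini-Hochberg adjusted p of the limma fit over all 22180 genes was under 0.05, and differences are given ± the standard error of that fit. The array medians lay between 6.394 and 6.489, the correlation between arrays of a subset was at least 0.99 across genes, and no arrays were identical. The files carry no detection calls, so a low reading may be background, and a log2 difference from it is then compressed. Each subset had n = 4 arrays. In sorted bulk samples, fewer cells that express a gene and less RNA per cell cannot be told apart. Cd8a averaged 11.46 in PD-1hi, 11.42 in PD-1int, 11.65 in memory and 11.65 in naive cells, and Cd4 averaged between 5.95 and 6.05. Of 7 CD8 T-cell markers, 3 rose and 1 fell in PD-1hi against naive: Cd3e (0.37 ± 0.06), Cd3g (0.34 ± 0.07) and Cd2 (0.51 ± 0.07) rose and Cd8b1 fell (-0.33 ± 0.07). Of all genes, 13.4% rose and 13.7% fell in that comparison.

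The receptors fell into 3 patterns. Lag3, Havcr2, Ctla4 and Cd244a had Pdcd1's order, highest in PD-1hi, then PD-1int, and low in memory and naive cells alike. Cd160 was up in all 3 antigen-experienced subsets, and Btla was lower in the effectors than in memory or naive cells. Leaving Pdcd1 aside because its protein set the gates, 5 of 6 receptors rose and 1 fell in PD-1hi against naive, where 27.1% of all genes changed, 13.4% up and 13.7% down. The median log2 difference of the 6 was 3.49, against -0.014 over all genes. In PD-1int against naive again 5 of 6 rose and 1 fell, against 11.9% and 10.8% of all genes, with a median of 2.49 against -0.03. In memory against naive, by contrast, 1 of 6 rose and 0 fell in the limma fit (2 and 1 at an unadjusted p under 0.05), against 6.70% and 5.02% of all genes. In PD-1hi against PD-1int 4 of 6 rose and 0 fell (5 and 0 at an unadjusted p under 0.05), where 3.31% of all genes changed, 1.37% up and 1.94% down. Those 734 genes became 474 without PD-1hi replicate 4 and 470 without PD-1int replicate 1. Against memory, 4 of 6 rose and 1 fell in PD-1hi, where 21.9% of all genes changed, and 4 of 6 rose and 1 fell in PD-1int, where 8.49% of all genes rose and 7.66% fell. The 3 comparisons against naive share the naive arrays.

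**Figure D1:**
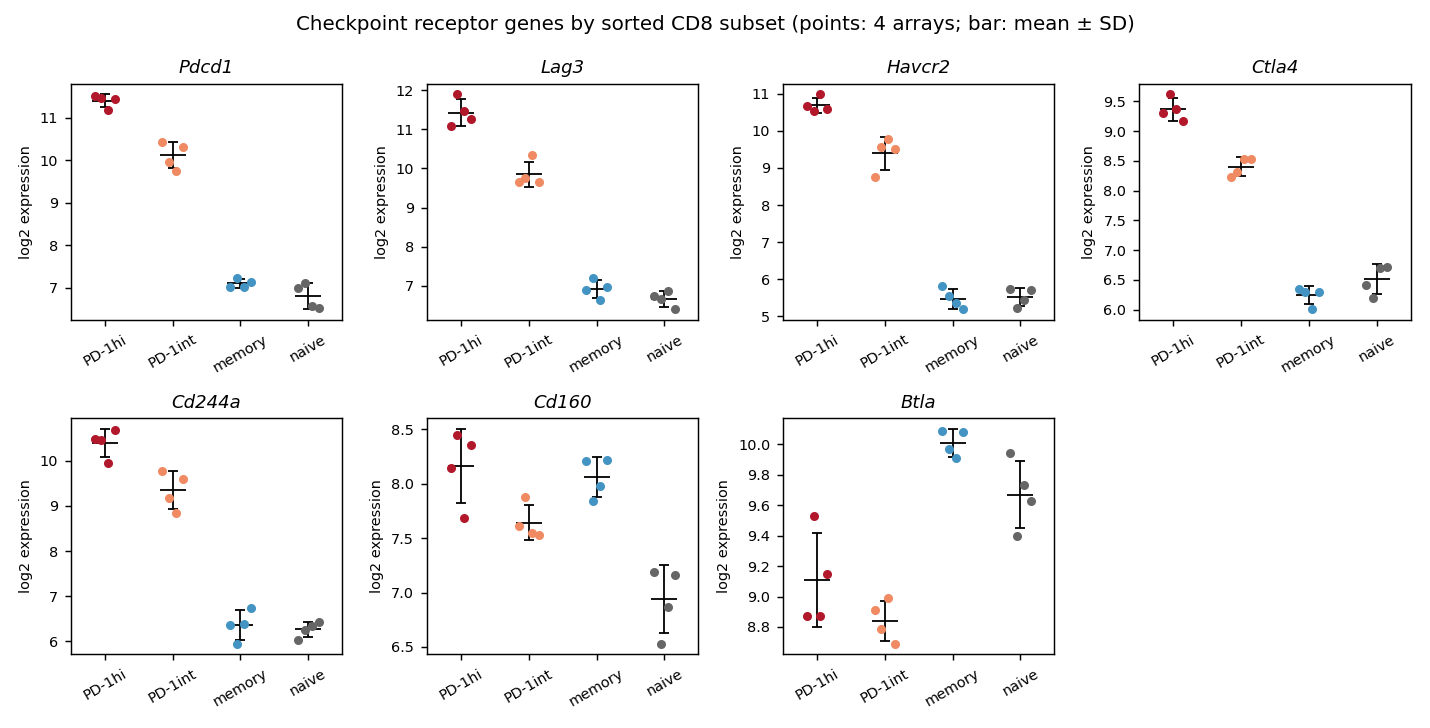
Log2 expression of the 7 receptor genes (vertical axes, a scale of its own in each panel) in PD-1hi, PD-1int, memory and naive arrays; points are the 4 arrays of a subset and bars the mean ± SD. Lag3, Havcr2, Ctla4 and Cd244a step down with Pdcd1, Cd160 is lowest in naive arrays, and Btla is lowest in the effector arrays.

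Pdcd1 encodes the receptor of the gate, and its values check the sort. It read 11.52, 11.47, 11.18 and 11.44 in PD-1hi arrays and 10.42, 9.96, 9.75 and 10.32 in PD-1int arrays. In memory arrays it read 7.02, 7.23, 7.02 and 7.14, and in naive arrays 6.99, 7.11, 6.57 and 6.52. The effector subsets did not overlap each other or the rest, while memory and naive arrays did. No test is given for a gene whose protein defined the groups; the differences were 4.61 ± 0.15 for PD-1hi against naive and 1.29 ± 0.15 for PD-1hi against PD-1int.

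Lag3 encodes a CD4-like receptor that binds MHC class II. Its values were 11.07, 11.89, 11.47 and 11.26 in PD-1hi arrays and 9.66, 9.75, 10.33 and 9.66 in PD-1int arrays. Memory arrays read 6.89, 7.19, 6.64 and 6.97, and naive arrays 6.75, 6.66, 6.87 and 6.41. Every PD-1hi array lay above every PD-1int array, and both effector subsets lay far above memory and naive, which overlapped. Lag3 rose 26.9-fold in PD-1hi against naive (95% interval 20.9 to 34.8, limma adjusted p = 6.00e-13) and 9.06-fold in PD-1int against naive (7.02 to 11.7, adjusted p = 1.81e-10). Between the effectors it rose by 1.57 ± 0.17, or 2.97-fold in PD-1hi (limma adjusted p = 3.08e-05), rank 9 from the highest of all 22180 differences, where Pdcd1 had rank 18. Memory against naive did not pass (0.25 ± 0.17, interval -0.12 to 0.62, limma adjusted p = 0.469).

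Havcr2 encodes TIM-3, a receptor of the TIM family known from terminally exhausted T cells and from myeloid cells. It read 10.67, 10.54, 10.99 and 10.59 in PD-1hi arrays and 8.75, 9.56, 9.78 and 9.50 in PD-1int arrays. Memory arrays read 5.81, 5.53, 5.34 and 5.19, and naive arrays 5.72, 5.21, 5.44 and 5.71. The lowest PD-1int array, replicate 1, still lay well above the highest memory or naive array. Its rise in PD-1hi against naive was 5.17 ± 0.19, or 36.1-fold (27.4 to 47.5, limma adjusted p = 5.72e-13), the largest of the 7 receptors and rank 15 of all genes. PD-1int rose against naive by 3.88 ± 0.19 (limma adjusted p = 3.39e-11), and PD-1hi against PD-1int by 1.30 ± 0.19, or 2.46-fold (limma adjusted p = 5.18e-04). Memory against naive did not pass (-0.05 ± 0.19, interval -0.45 to 0.35), and its sign turned without memory replicate 4 (0.04) and without naive replicate 1 or 4 (0.01 each). Markers of myeloid and dendritic cells were set beside this gene, since such cells express it: 3 of 11 rose in PD-1hi against naive, namely Itgax (2.40 ± 0.25), Itgam (1.03 ± 0.20) and Cst3 (0.57 ± 0.07), where 13.4% of all genes rose. The same 3 rose in PD-1int against naive, Itgax by 4.02 ± 0.25, where 11.9% of all genes rose. The Cst3 call ended there when its probe sets were averaged (0.27, limma adjusted p = 0.0984). In memory against naive 2 of 11 rose, Itgax (2.93 ± 0.25) and Cst3 (0.42 ± 0.07), the second of which was lost when probe sets were averaged (0.11, limma adjusted p = 0.674), against 6.70% of all genes. The log2 of the list's summed values was 11.50 to 11.67 in PD-1hi arrays, 11.80 to 11.99 in PD-1int, 11.46 to 11.59 in memory and 10.90 to 11.08 in naive. Such a sum weighs its brightest genes most, here Cst3 (subset means 10.36 to 10.93) and Itgax (6.10 to 10.12). In PD-1hi against naive Lyz2 gave 0.50 ± 0.19, Csf1r 0.25 ± 0.14 and Adgre1 0.13 ± 0.11, and none of these 3 passed. Siglech (-0.22 ± 0.08) and Xcr1 (-0.20 ± 0.09) went down there and did not pass either. At an unadjusted p under 0.05, 4 of the 11 rose and 2 fell. Itgax fell by 1.63 in PD-1hi against PD-1int. The part of other cells in these values was not tested.

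Ctla4 encodes CTLA-4, which competes with CD28 for CD80 and CD86. PD-1hi arrays read 9.31, 9.62, 9.37 and 9.17, and PD-1int arrays 8.23, 8.31, 8.54 and 8.53. Memory arrays read 6.35, 6.30, 6.01 and 6.30, and naive arrays 6.41, 6.20, 6.70 and 6.72. The effector subsets stood apart from each other and from the rest, and memory overlapped naive. Ctla4 rose 7.27-fold in PD-1hi against naive (6.05 to 8.73, limma adjusted p = 6.23e-12), 3.72-fold in PD-1int against naive (3.10 to 4.47, adjusted p = 2.19e-09) and 1.95-fold between the effectors (0.97 ± 0.13, adjusted p = 1.79e-04). In memory the difference from naive was -0.27 ± 0.13 and did not pass (limma adjusted p = 0.218). CTLA-4 is also abundant in regulatory T cells. Their factor Foxp3 did not pass in PD-1hi against naive (-0.22 ± 0.10) or against PD-1int (-0.06 ± 0.10). Among 5 markers of regulatory and CD4 T cells, 1 rose in PD-1hi against naive, Zbtb7b (0.28 ± 0.09), and 1 against PD-1int, Ikzf4 (0.71 ± 0.14), where 13.4% and 1.37% of all genes rose. The Zbtb7b call ended without PD-1hi replicate 1 (limma adjusted p = 0.0626), 2 (0.0595) or 3 (0.0588) and without naive replicate 1 (0.0604) or 3 (0.0865). Ikzf4 averaged 7.80 in PD-1hi, 7.09 in PD-1int, 6.90 in memory and 7.64 in naive. In PD-1int against naive Zbtb7b rose (0.26 ± 0.09) and Ikzf4 fell (-0.56 ± 0.14), where 11.9% of all genes rose and 10.8% fell. That Zbtb7b call ended in 5 of 16 fits with an array left out and in 2 other alternatives. The log2 of the summed values of all 5 markers was 9.04 to 9.24 in PD-1hi arrays, 8.84 to 8.90 in PD-1int, 8.78 to 8.89 in memory and 8.90 to 9.06 in naive. Their part in the Ctla4 values was not tested.

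Cd244a encodes 2B4, whose ligand is CD48 and which can activate or restrain the cell. It read 10.49, 10.45, 9.94 and 10.67 in PD-1hi arrays and 9.77, 9.17, 8.85 and 9.59 in PD-1int arrays. Memory arrays read 6.37, 5.95, 6.38 and 6.75, and naive arrays 6.04, 6.26, 6.35 and 6.43. The gap between the effectors was narrow: the lowest PD-1hi array read 9.94 and the highest PD-1int array 9.77. Cd244a rose 17.4-fold in PD-1hi against naive (13.0 to 23.1, limma adjusted p = 1.77e-11) and 8.43-fold in PD-1int against naive (6.33 to 11.2, adjusted p = 1.36e-09). PD-1hi exceeded PD-1int by 1.04 ± 0.20 (limma adjusted p = 0.0054), and the smallest difference with an array left out was 0.88, with an adjusted p of at most 0.0245. Memory did not pass against naive (0.09 ± 0.20, interval -0.32 to 0.50, limma adjusted p = 0.87), and its sign turned without memory replicate 4 (-0.04).

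Cd160 encodes a GPI-anchored receptor for HVEM and MHC class I molecules that is also found on natural killer cells. It read 8.14, 8.45, 7.68 and 8.35 in PD-1hi arrays and 7.61, 7.88, 7.55 and 7.53 in PD-1int arrays. Memory arrays read 8.21, 7.84, 7.98 and 8.22, and naive arrays 7.19, 6.53, 6.87 and 7.16. All 3 other subsets lay above naive without overlap, but they overlapped among themselves, PD-1int and memory only through PD-1int replicate 2 (7.88) and memory replicate 2 (7.84). Of the 6 receptors, Cd160 was the only one to rise in memory against naive (1.12 ± 0.16, 2.18-fold, limma adjusted p = 1.06e-04). It rose by 1.21 ± 0.16 in PD-1hi (adjusted p = 1.12e-05) and by 0.70 ± 0.16 in PD-1int (adjusted p = 0.00346) against naive. PD-1hi did not pass against PD-1int (0.51 ± 0.16, interval 0.17 to 0.86, limma adjusted p = 0.107), a difference that passed without PD-1hi replicate 3 (0.67, adjusted p = 0.018). PD-1int did not pass against memory either (-0.42 ± 0.16, limma adjusted p = 0.0977), though it did in a fit of those 8 arrays alone (adjusted p = 0.0227) and without PD-1hi replicate 3 (0.0468). PD-1hi against memory gave 0.09 ± 0.16 (interval -0.25 to 0.44, limma adjusted p = 0.786), and 0.00 without PD-1hi replicate 2. Markers of natural killer cells and of gamma-delta or innate-like T cells were set beside this gene, and 3 of 6 rose in memory against naive: Klrb1c (1.33 ± 0.19), Tyrobp (0.91 ± 0.15) and Fcer1g (0.70 ± 0.17), against 6.70% of all genes. Memory replicates 1 and 4, the highest for Cd160 (8.21 and 8.22), were also the highest for Klrb1c (7.08 and 7.17) and Fcer1g (7.39 and 7.70), while Tyrobp was highest in memory replicate 2 (7.34). The natural killer receptor Ncr1 averaged 5.84 in memory and 5.84 in naive. In PD-1hi against naive, where Cd160 rose as well, 0 of the 6 passed in the limma fit (0 at an unadjusted p under 0.05), against 27.1% of all genes. In PD-1int against naive 1 of the 6 rose, Tyrobp (0.51 ± 0.15, limma adjusted p = 0.0176), against 11.9% of all genes. At an unadjusted p under 0.05, 2 rose there. The Tyrobp call ended without PD-1int replicate 1 (limma adjusted p = 0.0645) or 4 (0.0627) and without naive replicate 1 (0.0558) or 3 (0.0584). The log2 of the summed values of the 6 markers was 8.61 to 8.79 in PD-1hi arrays, 8.68 to 8.80 in PD-1int, 8.88 to 9.30 in memory and 8.51 to 8.63 in naive. Their part in the Cd160 and Cd244a values was not tested.

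Btla encodes an inhibitory receptor of resting lymphocytes that binds HVEM, and B cells express it strongly. PD-1hi arrays read 8.87, 9.53, 8.87 and 9.15, and PD-1int arrays 8.91, 8.79, 8.99 and 8.69. Memory arrays read 10.09, 9.97, 9.91 and 10.08, and naive arrays 9.94, 9.40, 9.73 and 9.63. PD-1int lay below memory and naive in every array, whereas PD-1hi replicate 2 reached into the naive range. Btla fell in PD-1int against naive by 0.83 (SE 0.13, limma adjusted p = 1.23e-04) and in PD-1hi against naive by 0.57 (SE 0.13, adjusted p = 0.00302). Against memory it fell by 1.17 in PD-1int (limma adjusted p = 5.95e-06) and by 0.91 in PD-1hi (adjusted p = 4.68e-05). Memory against naive (0.34 ± 0.13, limma adjusted p = 0.125) and PD-1hi against PD-1int (0.26 ± 0.13, adjusted p = 0.403) did not pass. Among 9 markers of B cells and leukemia cells, Cd22 rose (0.84 ± 0.12) and Cd79b fell (-0.97 ± 0.13) in PD-1hi against naive, and the other 7 did not pass, where 27.1% of all genes changed. In PD-1int the same genes passed against naive, Cd22 at 1.74 ± 0.12 and Cd79b at -0.72 ± 0.13, where 22.7% of all genes changed. Cd79a, part of the B-cell receptor, averaged 6.16 in PD-1hi, 6.24 in PD-1int, 6.12 in memory and 6.32 in naive. Cd22 was the gene of the list that rose in memory against naive (3.22 ± 0.12), where 6.70% of all genes rose. The log2 of the list's summed values was 9.12 to 9.39 in PD-1hi arrays, 9.45 to 9.70 in PD-1int, 10.23 to 10.41 in memory and 9.29 to 9.43 in naive. That sum weighs bright genes most, and Cd22 averaged 9.50 in memory against 6.28 in naive. The other 8 genes did not pass in memory against naive (2 of the list rose at an unadjusted p under 0.05). The list's median difference there was -0.05, against -0.016 over all genes. The part of B cells and leukemia cells in the Btla values was not tested.

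**Figure D2:**
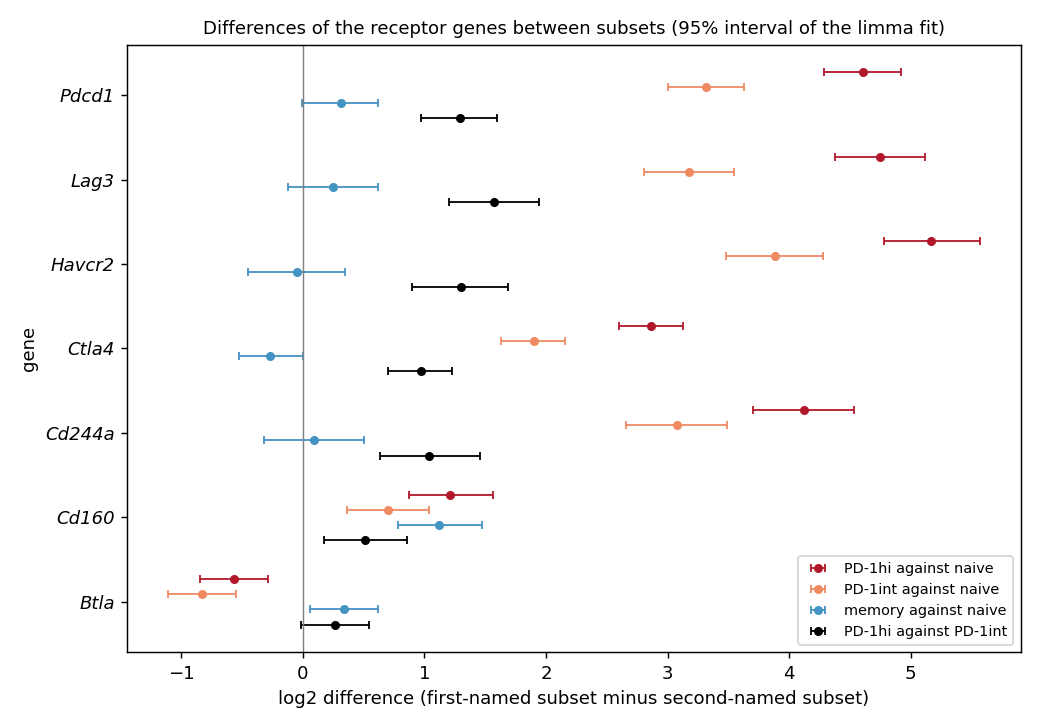
Log2 differences of the 7 receptor genes (rows) for PD-1hi, PD-1int and memory against naive and for PD-1hi against PD-1int; points are limma estimates, lines their 95% intervals. Havcr2 reaches 5.17 in PD-1hi against naive, the memory differences lie near 0 except that of Cd160 (1.12), and Btla is below 0 in both effector subsets against naive.

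For the receptors with Pdcd1's order, PD-1int means reached most of the log2 difference between PD-1hi and naive cells. This holds on the log2 scale only: in folds over naive, Lag3 stood at 9.06 in PD-1int and 26.9 in PD-1hi. The share reached in PD-1int was 66.9% for Lag3, 75% for Havcr2, 66.3% for Ctla4 and 74.7% for Cd244a, against 72% for Pdcd1 itself. Cd160 reached 57.7%, and Btla passed its PD-1hi level, at 146%, since its PD-1int mean was the lower one. These shares describe means of 4 arrays and were not tested between genes.

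Across the 16 arrays Pdcd1, Lag3, Havcr2, Ctla4 and Cd244a correlated with one another at a Pearson r of 0.97 to 0.99, which follows from their common differences between subsets. The genes whose profile was most like Lag3 were Batf (r = 0.99), an AP-1 family factor, then Ctla4 and Slc4a8 (r = 0.985 each). For Havcr2 they were Rbl2 and Ctla4 (r = 0.988 each) and Glrx (r = 0.987). Ctla4 itself was matched most closely by Cemip2 (r = 0.991), Havcr2 (r = 0.988) and Lag3 (r = 0.985). For Cd244a they were Pdcd1 (r = 0.988), Tox (r = 0.984), a nuclear factor of exhausted T cells, and Themis2 (r = 0.983), and for Pdcd1 they were Cd244a, Adap1 (r = 0.986) and Maf (r = 0.985). Cd160 had looser matches, Tmed5 (r = 0.958), Ndufc2 (r = 0.917) and Uchl5 (r = 0.906), and Btla followed Nop16 and Bmyc (r = 0.955 each) and Akap1 (r = 0.941). Each r is over 16 arrays in 4 groups and carries no test.

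Within subsets the genes that share Pdcd1's order did not all move together. After each array was set against its subset mean, Pdcd1 and Cd244a had an r of 0.41, whereas Havcr2 had -0.63 with Pdcd1 and -0.68 with Cd244a. Lag3 had 0.48 with Ctla4 and -0.52 with Cd244a, and Cd160 had 0.68 with Btla. Among the PD-1int arrays, replicate 1 was lowest for Havcr2 (-0.65) and highest for Cd244a (0.42), and replicate 3 was highest for Havcr2 (0.38) and lowest for Cd244a (-0.50). PD-1hi replicate 3 likewise was highest for Havcr2 (0.29) and lowest for Cd244a (-0.45). These r values rest on 16 deviations from 4 means and describe these arrays only.

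**Figure D3:**
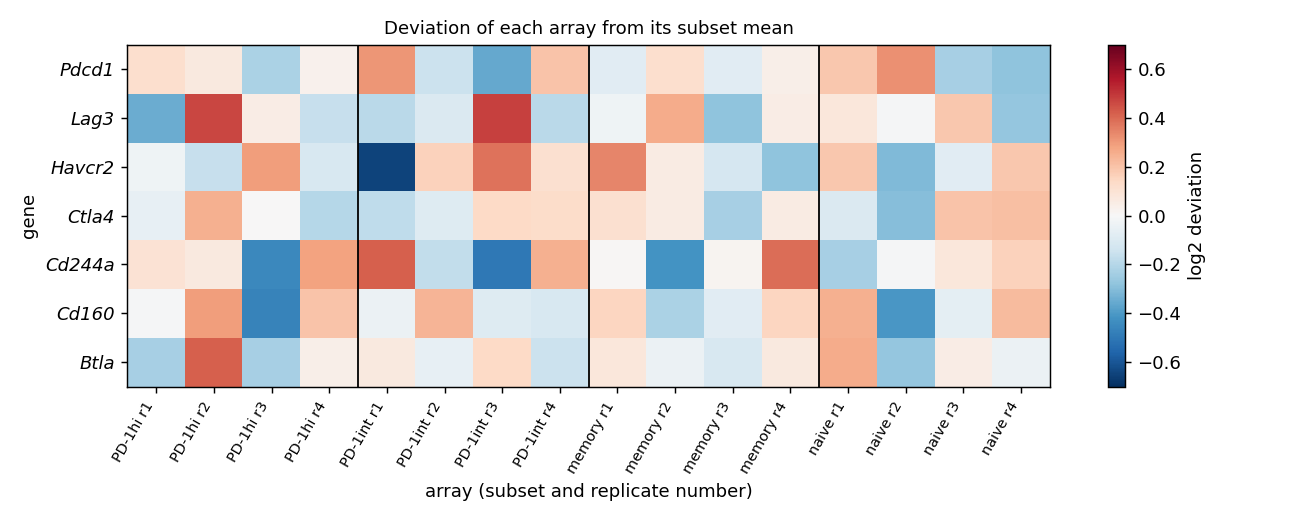
Deviation of each array (columns, grouped by subset; r1 to r4 are replicate numbers) from its subset mean for the 7 receptor genes (rows), in log2 units by colour. PD-1int replicate 1 is -0.65 for Havcr2 and 0.42 for Cd244a, and PD-1int replicate 3 is 0.38 and -0.50.

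Ligands and binding partners of the receptors changed in both directions. Of 15 genes, 3 rose and 4 fell in PD-1hi against naive (median -0.05, against -0.014 over all genes), where 13.4% of all genes rose and 13.7% fell. In PD-1int against naive 4 rose and 2 fell (all genes 11.9% and 10.8%), and in memory against naive 1 rose and 3 fell (all genes 6.70% and 5.02%). In PD-1hi against PD-1int 0 rose in the limma fit (1 at an unadjusted p under 0.05) and 3 fell (all genes 1.37% and 1.94%). The genes named here by value rather than by rank, among them Tnfrsf14, Ptpn11, Icos, Satb1 and Foxo1, were chosen after their values were seen. Cd274, the gene of the PD-1 ligand PD-L1, read 8.03, 8.07, 8.31 and 7.67 in PD-1hi arrays, against 8.74, 10.03, 10.02 and 9.38 in naive arrays. It fell by 1.53 in PD-1hi (limma adjusted p = 1.73e-05), by 1.25 in PD-1int (adjusted p = 2.08e-04) and by 1.37 in memory (adjusted p = 2.05e-04) against naive. Cd80 and Cd86, whose products bind CTLA-4 and CD28, differed from each other. Cd80 rose in PD-1hi against naive (2.13 ± 0.35, limma adjusted p = 1.19e-04), with wide spread among PD-1hi arrays (7.01, 7.40, 8.80 and 7.48) and less among naive arrays (5.48, 5.72, 5.55 and 5.44). It also rose in PD-1int against naive (2.54 ± 0.35, limma adjusted p = 2.51e-05). Cd86 read 6.75, 7.56, 7.80 and 6.65 in PD-1hi arrays, against 8.77, 8.83, 8.59 and 8.50 in PD-1int arrays and 8.23, 8.72, 8.72 and 8.76 in naive arrays. It fell in PD-1hi against PD-1int by 1.48 (SE 0.28, limma adjusted p = 0.00522) and in PD-1hi against naive by 1.42 (adjusted p = 5.93e-04), while PD-1int and naive overlapped. Cd86 also fell in memory against naive (-2.07 ± 0.28, limma adjusted p = 4.51e-05). Lgals3, the gene of galectin-3, which binds LAG-3, rose in PD-1hi against naive (1.66 ± 0.14, limma adjusted p = 4.45e-08), as did Cd48, the ligand of 2B4 (0.61 ± 0.07, adjusted p = 1.34e-06). Tnfrsf14, which encodes HVEM, the partner of BTLA and CD160, fell in PD-1hi (-0.52 ± 0.12), PD-1int (-0.53 ± 0.12) and memory (-0.63 ± 0.12) against naive. Tnfsf14, which encodes LIGHT, another HVEM ligand, was lower in PD-1hi than in PD-1int (-0.86 ± 0.19, limma adjusted p = 0.0163). That call ended without PD-1hi replicate 1 (adjusted p = 0.0599) or PD-1int replicate 1 (0.0507). Lgals9, the gene of galectin-9, a TIM-3 ligand, fell between the effectors by 0.36 (limma adjusted p = 0.0403). Its call ended without PD-1hi replicate 1 (adjusted p = 0.136) or 4 (0.11), without PD-1int replicate 2 (0.0987), 3 (0.115) or 4 (0.0782), without memory replicate 1 (0.0528) or 3 (0.05), with median centring (0.0505) and in a fit of the 8 arrays alone (0.107).

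The costimulatory relatives moved less. Cd28 rose in PD-1hi against naive (0.38 ± 0.13, limma adjusted p = 0.0309), a call that ended without PD-1hi replicate 1 (adjusted p = 0.059), 3 (0.0819) or 4 (0.064), without naive replicate 3 (0.06) or 4 (0.12), and in a fit of the 8 arrays alone (0.0627). Icos did not pass there (0.15 ± 0.18). In PD-1hi against PD-1int neither passed, at -0.17 ± 0.13 for Cd28 and 0.25 ± 0.18 for Icos.

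Among signalling, trafficking and shedding genes, most rose in the effectors while the phosphatase gene Ptpn6 fell. Of 14 such genes (Lck was not analysed here), 10 rose and 1 fell in PD-1hi against naive (median 0.51, against -0.014 over all genes), where 13.4% of all genes rose and 13.7% fell. In PD-1int against naive 10 rose and 1 fell (all genes 11.9% and 10.8%), in memory against naive 5 rose and 1 fell (all genes 6.70% and 5.02%), and in PD-1hi against PD-1int 1 rose and 1 fell (all genes 1.37% and 1.94%). Ptpn6 encodes SHP-1, a tyrosine phosphatase that binds the tails of several inhibitory receptors. It read 9.49, 9.44, 9.38 and 9.37 in PD-1hi arrays, 10.51, 10.15, 10.21 and 10.27 in PD-1int arrays, 11.75, 11.58, 11.58 and 11.62 in memory arrays and between 10.80 and 11.07 in naive arrays. No 2 subsets overlapped, and the order was memory, naive, PD-1int, PD-1hi from high to low. Ptpn6 fell in PD-1hi by 1.54 against naive (SE 0.09, limma adjusted p = 1.53e-10) and by 0.86 against PD-1int (SE 0.09, adjusted p = 1.11e-05), to 0.55 of the PD-1int level. It rose in memory against naive (0.67 ± 0.09, limma adjusted p = 2.59e-05). Ptpn11, the gene of the related phosphatase SHP-2, which binds PD-1, went the other way in PD-1hi against naive (0.81 ± 0.10, limma adjusted p = 5.73e-06), with 0.20 ± 0.10 between the effectors (adjusted p = 0.4). Sh2d1a, which encodes the 2B4 adaptor SAP, rose in PD-1hi against naive (1.82 ± 0.10, limma adjusted p = 9.38e-11) and in memory against naive (0.71 ± 0.10, adjusted p = 6.28e-05), but not between the effectors (0.17 ± 0.10, adjusted p = 0.47). Fyn, the kinase that SAP recruits, rose in PD-1hi against naive by 1.11 ± 0.06, and Inpp5d, the lipid phosphatase SHIP-1, by 0.80 ± 0.07. Lrba, whose product keeps CTLA-4 from degradation, rose in PD-1hi against naive (0.62 ± 0.09, limma adjusted p = 2.18e-05) and against PD-1int (0.36 ± 0.09, adjusted p = 0.0273). The Lrba call against PD-1int ended without PD-1hi replicate 1 (adjusted p = 0.0588), 3 (0.0808) or 4 (0.0619), without PD-1int replicate 1 (0.0525), 2 (0.0883) or 3 (0.0825), with median centring (0.0727) and in a fit of the 8 arrays alone (0.0819).

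**Figure D4:**
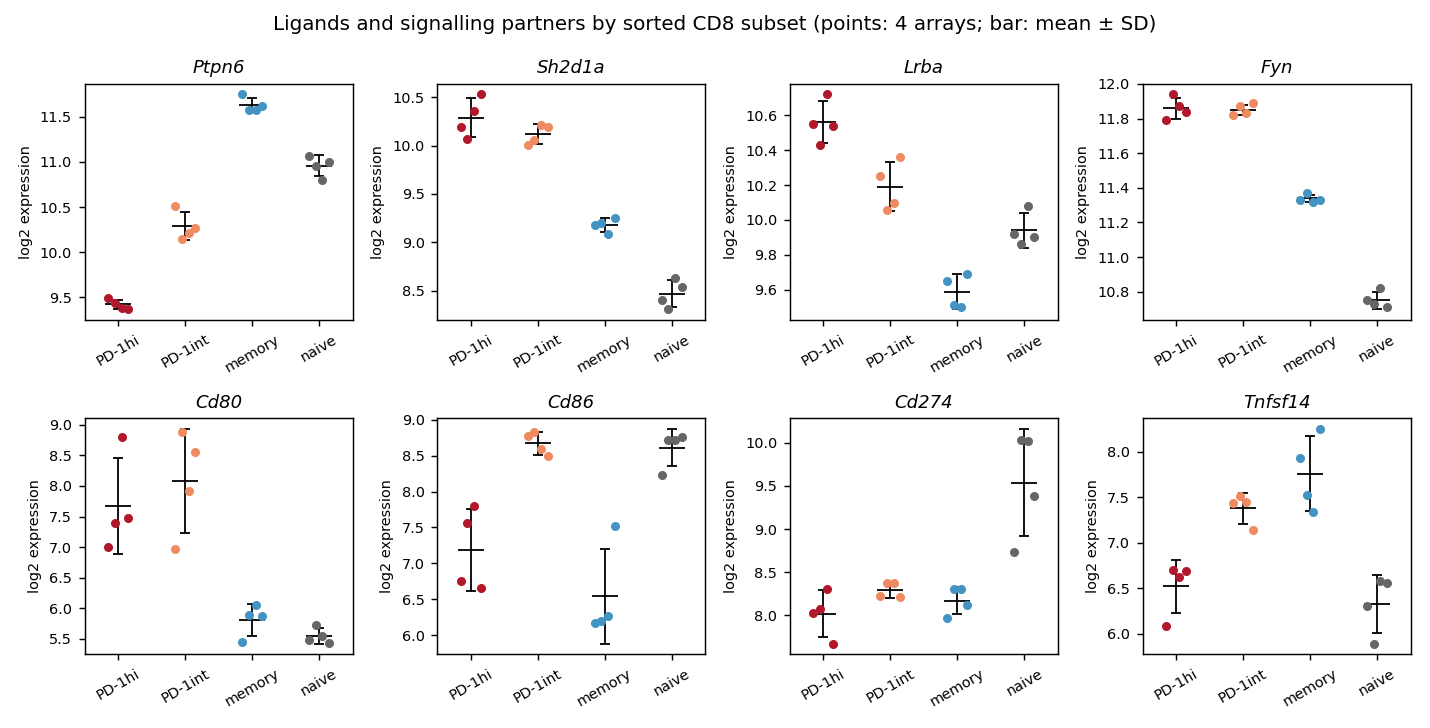
Log2 expression (vertical axes, a scale of its own in each panel) of 8 partner genes in PD-1hi, PD-1int, memory and naive arrays; points are the 4 arrays of a subset and bars the mean ± SD. Ptpn6 averages 9.42 in PD-1hi, against 10.29 in PD-1int and 10.96 in naive arrays, and Cd86 is low in PD-1hi and memory arrays.

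Transcription factors tied to checkpoint receptor genes changed almost throughout in the effectors. Of 15 (Tcf7 was not analysed here), 12 rose and 3 fell in PD-1hi against naive (median 1.59, against -0.014 over all genes), where 13.4% of all genes rose and 13.7% fell. In PD-1int against naive 13 rose and 2 fell (all genes 11.9% and 10.8%), and in memory against naive 4 rose and 2 fell (all genes 6.70% and 5.02%). Maf, a bZIP factor, rose by 5.06 ± 0.20 in PD-1hi against naive, Eomes, a T-box factor, by 3.26 ± 0.09, Tox by 2.35 ± 0.10 and Batf by 1.77 ± 0.09. The 3 that fell in PD-1hi were Satb1 (-3.81 ± 0.23), a chromatin organiser known to repress Pdcd1 in mouse T cells, Foxo1 (-0.49 ± 0.09) and Bcl6 (-0.53 ± 0.12). Between the effectors 3 rose and 2 fell (all genes 1.37% and 1.94%). Tox rose there by 0.54 ± 0.10 (limma adjusted p = 0.00619), Batf by 0.46 ± 0.09 (adjusted p = 0.00926) and Maf by 0.93 ± 0.20 (adjusted p = 0.0131). Bcl6 fell by 0.88 (SE 0.12, limma adjusted p = 3.36e-04) and Tbx21, the gene of T-bet, by 0.63 (SE 0.13, adjusted p = 0.0118). Against naive, Tbx21 rose in PD-1hi (1.95 ± 0.13), PD-1int (2.58 ± 0.13) and memory (2.98 ± 0.13). Eomes, which rose in memory too (2.21 ± 0.09), did not pass between the effectors (0.10 ± 0.09, limma adjusted p = 0.693).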

How the data were processed

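RNA of 16 sorted samples was amplified (WT Pico) and run on whole-transcript mouse gene arrays, per the labels' protocols. The authors deposited log2 expression for every probe set; Affymetrix Power Tools was used, per the submitters' processing notes, whose version and summarisation method are not given in the sources available. The log base was read from the range, 2.347 to 14.125. Of 41345 probe sets, 23521 carried 1 gene symbol, 1814 several and 16010 none; those with several or none were not used. Entrez identifiers matched RefSeq (GRCm38.p6) for 23328 and changed 0 symbols. For the 1082 genes with several probe sets the brightest on average was used, giving 22180 genes with no filter.

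All 16 arrays were fitted with limma 3.58.1 (R 4.3.3; a mean per subset, no block, eBayes), and 6 pairs of subsets were compared, with Benjamini-Hochberg adjustment over all genes of a comparison. The number of arrays limits the precision. The fit was checked on simulated data for PD-1hi against PD-1int. The simulated noise was independent between genes and arrays, so the check does not cover an effect shared by same-numbered arrays. The receptors, partner lists and marker lists were chosen with earlier results of these data known. Named partner genes are the up to 4 of each list with the smallest adjusted p in PD-1hi against naive and against PD-1int; likeness is Pearson's r over the arrays, the first 3 genes, leaving aside predicted loci, small RNAs and segments of antigen receptors. Alternatives were a replicate block, the 8 arrays compared alone, leaving out the 40% dimmest genes, probe sets averaged per gene, trend and robust settings of eBayes, median centring, quantile normalization, and leaving out each array.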

Additional observations from a re-analysis of the deposited data

Results flagged for a closer look

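In 28 groups of 4 arrays (7 genes in 4 subsets), 2 held an array farther from its nearest neighbour than Dixon's 95% critical value for the group's range; chance gives about 1 in 20 groups. Lag3 read 10.33 in PD-1int replicate 3, against 9.75 in the next array of that subset, with a gap of 0.863 of the range. Ctla4 read 6.01 in memory replicate 3, against 6.30 in the next array, with a gap of 0.854 of the range.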

How the results depend on the processing

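Every rise and fall of Lag3, Havcr2, Ctla4, Cd244a, Cd160 and Btla called in the report stayed on its side of the threshold in all alternatives run, and the differences of Pdcd1 moved by less than the spread between arrays. For the other differences of these genes, the exceptions were as follows. Cd160 passed in PD-1hi against PD-1int without PD-1hi replicate 3 (differences with an array left out ran from 0.42 to 0.67), and in PD-1int against memory when those 8 arrays were fitted alone (-0.42, adjusted p = 0.0227) or PD-1hi replicate 3 was left out (-0.42, adjusted p = 0.0468; with an array left out, -0.50 to -0.37). Differences near 0 changed sign: with an array left out, Havcr2 in memory against naive ran from -0.17 to 0.04 (0.04 without memory replicate 4, 0.01 without naive replicate 1, 0.01 without naive replicate 4), Cd244a in memory against naive from -0.04 to 0.23 (-0.04 without memory replicate 4), and Cd160 in PD-1hi against memory from 0.00 to 0.25 (0.00 without PD-1hi replicate 2). The number of genes changed in PD-1hi against PD-1int ran from 470 to 751 with an array left out (474 without PD-1hi replicate 4, 470 without PD-1int replicate 1), against 734. The lost calls of Cd28, Tnfsf14, Lgals9, Zbtb7b, Cst3, Tyrobp and, between the effectors, Lrba stand beside their values. Only part of the list genes was followed through the alternatives, and among these other calls counted in the lists were lost too. Calls of list genes that were not followed, such as Nr4a3, Nfil3 and Csk, may be unstable as well. In PD-1int against naive, Bcl6 (0.35) and Lrba (0.25) lost theirs in 12 and 10 of 16 fits with an array left out. They also lost them in 2 and 3 of the other alternatives, respectively. Tox in memory against naive (-0.37) lost its call in 4 of the 16 fits. Klrb1c fell below the filter on the 40% dimmest genes and has no value there.

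With the replicate number as a block, 6027 genes changed between PD-1hi and naive, 5025 between PD-1int and naive, 2633 between memory and naive, 748 between PD-1hi and PD-1int, 4866 between PD-1hi and memory and 3576 between PD-1int and memory, and no receptor call changed. The titles give same-numbered arrays of the 4 subsets a shared tag, AT and the number, without saying what it marks. Deviations from subset means correlated across genes by -0.048 to 0.151 for the 24 same-numbered pairs, with 2 over 0.1 and a mean of 0.034, against a mean of -0.011 for the 72 pairs of different number. In 27 of 48 comparisons of an array with the 4 arrays of another subset, its own number correlated best, where by chance each of the 4 is equally likely. Each pair of subsets enters from both sides, so the 48 comparisons are not independent. The shared tag and these correlations are a hint of pairing, which the labels do not state. Without detection calls, signal over background cannot be given, which limits what can be said of Havcr2, Cd244a and Ctla4 in memory and naive cells.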
